A study of Mus musculus with 16 samples.

Results

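The 9 genes described here encode products that mark megakaryocytes and the platelets they release: Itga2b, Itgb3, Gp1bb, Gp5, Gp6, Gp9, Pf4, Ppbp and Treml1. They were chosen by name, with earlier results of these data known. Each was read from its brightest probe on the array. They are 9 of the 37149 genes tested, and all 9 passed the minimum on intensity. RNA was measured in 16 one-color Agilent arrays, 2 for each of 8 groups. The groups combine 2 genotypes of mouse embryonic stem (ES) cells with 4 populations of their hematopoietic differentiation in culture. Sp1+/+ cells are the wild-type ES line that the labels call E14, and Sp1-/- cells (SP1KO) carry a mutated Sp1 locus whose truncated product cannot bind DNA. The labels give the strain as C57BL/6 for every sample. Sp1-/- cells are a single mutant line, so a difference between the genotypes is also a difference between 2 lines. Flk1+ cells, which contain hemangioblasts, were isolated with magnetic beads from embryoid bodies. The other 3 populations were sorted on the second day of blast culture, once the floating and the adherent fraction were pooled: HE1 (KIT+ Tie2+ CD41-) and HE2 (KIT+ Tie2+ CD41+), which are successive stages of the hemogenic endothelium, and progenitors (KIT+ CD41+ Tie2-). CD41 is the product of Itga2b, so one of the 9 genes was itself a sort gate.

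Megakaryocytes mature from hematopoietic progenitors, fill with granules and shed platelets into the blood. Itga2b and Itgb3 encode the 2 chains of integrin alphaIIb-beta3, the platelet receptor for fibrinogen, and its alpha chain (CD41) also marks the earliest blood progenitors of the embryo. Gp1bb, Gp9 and Gp5, together with Gp1ba, encode the glycoprotein Ib-IX-V complex, by which platelets bind von Willebrand factor. Gp6 encodes the platelet receptor for collagen, Pf4 and Ppbp encode chemokines stored in alpha granules, and Treml1 encodes a receptor held in alpha granules until the platelet is activated. Transcription factors of the GATA, ETS and RUNX families are known to drive this program.

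The regions upstream of the start sites are shown for the 3 members of the glycoprotein Ib-IX-V complex, and for Itga2b. The 3 were all called higher in Sp1-/- progenitors, and Itga2b was not. RefSeq windows of the GRCm38.p6 assembly, from 250 bases before to 50 bases after the start, were found for 8 of the 9 genes (not for Itgb3). Each sequence runs 5' to 3' on the strand of its gene. Capitals mark matches, on either strand, to any of 4 motifs, and no matches overlap here. The erythroid and megakaryocyte factors of the GATA family are known to bind GATAAG. The motif searched for ETS factors was AGGAAG. The GC box to which Sp1 itself binds was searched as GGGCGG. For RUNX factors the letters were TGTGGT. Gp1bb lies at chr16:18622354-18622653 (minus strand), Gp9 at chr6:87777820-87778119 (plus), Gp5 at chr16:30310732-30311031 (minus) and Itga2b at chr11:102469834-102470133 (minus).
Gp1bb: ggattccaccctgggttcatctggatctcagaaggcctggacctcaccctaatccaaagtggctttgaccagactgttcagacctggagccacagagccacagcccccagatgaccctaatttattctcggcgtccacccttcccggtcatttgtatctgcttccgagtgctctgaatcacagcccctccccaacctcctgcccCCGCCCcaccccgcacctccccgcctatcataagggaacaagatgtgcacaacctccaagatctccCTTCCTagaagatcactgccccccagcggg
Gp9: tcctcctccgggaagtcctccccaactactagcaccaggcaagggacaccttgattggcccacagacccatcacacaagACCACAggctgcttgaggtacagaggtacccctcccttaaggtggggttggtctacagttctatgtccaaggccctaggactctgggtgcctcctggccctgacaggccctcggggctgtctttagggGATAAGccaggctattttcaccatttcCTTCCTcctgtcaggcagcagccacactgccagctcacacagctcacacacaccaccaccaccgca
Gp5: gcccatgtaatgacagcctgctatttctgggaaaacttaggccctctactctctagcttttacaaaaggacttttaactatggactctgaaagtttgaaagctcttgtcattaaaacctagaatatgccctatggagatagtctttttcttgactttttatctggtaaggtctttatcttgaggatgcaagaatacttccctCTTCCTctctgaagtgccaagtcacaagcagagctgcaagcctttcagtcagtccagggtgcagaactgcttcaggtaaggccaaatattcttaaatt
Itga2b: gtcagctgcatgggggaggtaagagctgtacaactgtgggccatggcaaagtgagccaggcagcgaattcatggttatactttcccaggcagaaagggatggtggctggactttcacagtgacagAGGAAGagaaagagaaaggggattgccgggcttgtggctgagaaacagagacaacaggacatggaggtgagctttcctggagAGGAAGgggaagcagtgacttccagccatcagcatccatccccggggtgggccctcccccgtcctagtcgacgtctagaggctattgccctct

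The window of Gp1bb held the only GC box among the 8 genes, at positions -46 to -41 from the start, whereas 35.7% of the 32851 windows of this length in the table held one. An ETS motif was present in 5 of the 8 windows (Itga2b, Gp1bb, Gp5, Gp9 and Pf4), against 35.4% of all windows. It lay within 50 bases of the start in each of the 5. A GATA motif was present in Gp9, at -43 to -38, and in Gp6, at -143 to -138, against 7.44% of all windows. The RUNX motif was found in Gp9 only, against 16.8% of all windows. Only the exact letters of each motif were searched, so other forms of the motifs are not marked. These matches describe only the letters of short windows.

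Spots well above background made up 67.0% to 77.1% of each array by the scanner's own test, and 0 spots were saturated. All values below are the log2 intensities that the authors deposited, normalized across the arrays, and a log2 difference of 1 is a 2-fold change. The number of arrays limits the precision of every comparison. The Sp1+/+ arrays shared 1 slide and the Sp1-/- arrays shared the other, which means that genotype and slide cannot be told apart, while changes from one population to the next lie within 1 slide. The deposited record and the text of the study speak of biological replicates and a legend of the study of technical ones, so the p-values may measure only technical spread. The Sp1 probe was lower in Sp1-/- cells by 2.28 to 3.28 on the log2 scale in the 4 populations, with no overlap between the genotypes; where the probe lies relative to the mutation was not examined. To be called, a gene needed an unadjusted limma p no higher than 0.01 together with a 2-fold or larger change, and p-values were adjusted by Benjamini-Hochberg across the 37149 genes. The 2 Sp1+/+ HE1 arrays differed from each other in erythroid genes, the mean log2 intensity over 11 erythroid markers being 10.34 in replicate 1 and 8.15 in replicate 2, against 9.18 and 9.20 in Sp1-/- HE1. Sp1+/+ HE2 and Sp1+/+ progenitors differed in the same markers, at 10.90 and 9.74 for the HE2 arrays and 11.61 and 12.90 for the progenitor arrays. Calls of the 9 genes that changed when an array was left out are given beside them.

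Along differentiation 7 of the 9 genes rose in both genotypes, at different steps, and no step was called for Gp6 or Ppbp. Itga2b, Itgb3 and Pf4 rose from Flk1+ cells to HE1, whereas Gp1bb, Gp5, Gp9 and Treml1 were first called at a later step. In progenitors 6 of the 9 genes were higher in Sp1-/- cells than in Sp1+/+ cells, by 2.03-fold (Gp6) to 4.72-fold (Treml1). Both integrin chains and Ppbp were not called, and the Itga2b product CD41 was a sort gate in both genotypes. In HE2, Gp5 and Treml1 were higher in Sp1-/- cells, and in Flk1+ cells and HE1 none of the 9 was called.

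**Figure D1:**
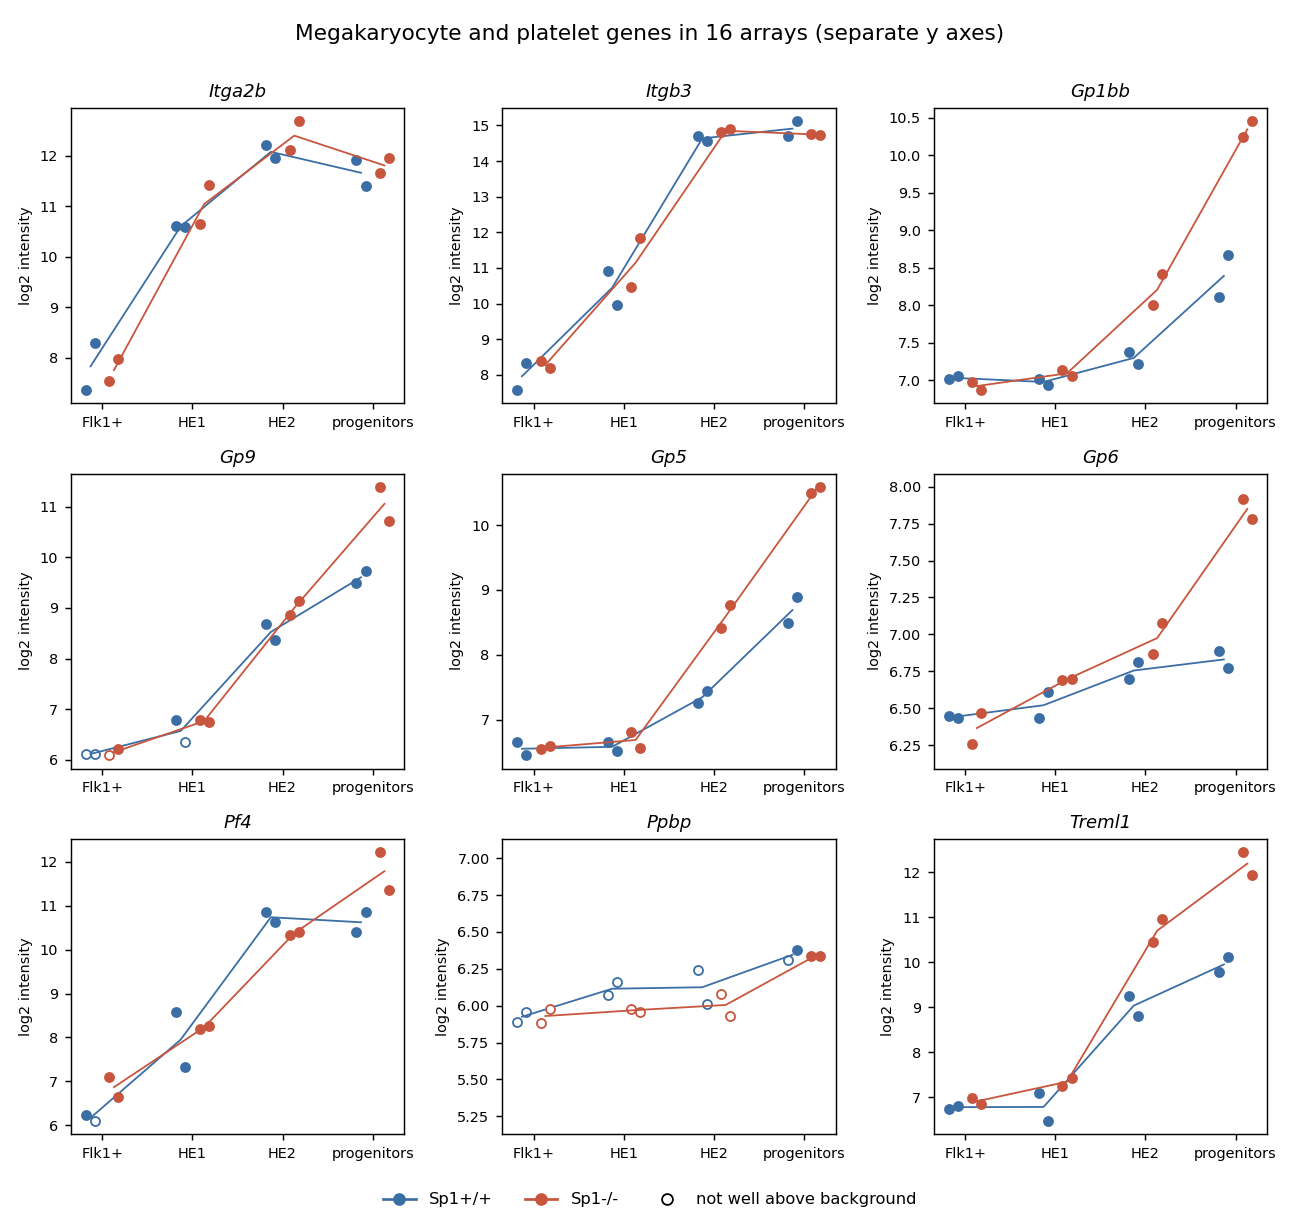
Log2 intensity (y axis, separate scale for each gene) of the 9 genes on each of the 16 arrays, by population (x axis), with Sp1+/+ in blue and Sp1-/- in red. Points are arrays, lines join the means of 2 arrays, and open points were not well above background. In progenitors the 2 Sp1-/- arrays lie above both Sp1+/+ arrays for Gp1bb, Gp9, Gp5, Gp6, Pf4 and Treml1, and not for Itga2b, Itgb3 or Ppbp.

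Itga2b had log2 intensities of 7.37 and 8.30 in Sp1+/+ Flk1+ cells, 10.61 and 10.60 in HE1, 12.21 and 11.95 in HE2 and finally 11.92 and 11.41 in progenitors (replicates 1 and 2 throughout). The Sp1-/- arrays of the same populations had 7.54 and 7.98, 10.66 and 11.43, 12.12 and 12.68, and 11.66 and 11.96 in the same order. The highest mean of each genotype was thus in HE2, although the step from HE2 to progenitors was not called (-0.42 and -0.59). The genotypes overlapped in Flk1+ cells, HE2 and progenitors. HE2 and progenitors were sorted as CD41+ in both genotypes, so the overlap there is not independent of the gate. Although HE1 was gated as CD41-, Itga2b RNA was already higher in HE1 than in Flk1+ cells, by 2.77 in Sp1+/+ cells (standard error 0.34, adjusted p = 1.0e-04) and by 3.29 in Sp1-/- cells (adjusted p = 2.7e-05). From HE1 to HE2, the step at which the CD41 gate changes, it rose by a further 1.48 in Sp1+/+ cells (adjusted p = 0.0165) and 1.36 in Sp1-/- cells (adjusted p = 0.0161). The gate chose cells by the protein of this gene, so the second rise is no independent finding. It lost its call in Sp1+/+ cells without HE2 replicate 1 (1.35), and in Sp1-/- cells without HE1 replicate 1 (0.97) or HE2 replicate 2 (1.08) or with the 4 arrays of this step fitted alone.

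Itgb3, which encodes the partner chain and was no sort gate, had log2 intensities of 7.58 and 8.34 in Sp1+/+ Flk1+ cells, 10.92 and 9.97 in HE1, 14.71 and 14.56 in HE2 and finally 14.71 and 15.11 in progenitors. Its values in Sp1-/- cells, in that order, were 8.38 and 8.18, 10.46 and 11.83, 14.81 and 14.89, and 14.77 and 14.72. Within each genotype HE2 and progenitors were both far above Flk1+ cells, and they overlapped in Sp1+/+ cells. The rise from HE1 to HE2 was the largest of any of the 9 genes at any step. It was 4.19 in Sp1+/+ cells (standard error 0.41, adjusted p = 0.000204) and 3.71 in Sp1-/- cells (adjusted p = 0.000151). The gate on CD41, the partner chain, changes at this step, so this rise is not independent of the sort. From Flk1+ cells to HE1 Itgb3 rose by 2.49 and 2.87, and from HE2 to progenitors it was not called in either genotype (0.28 and -0.11). None of the differences between genotypes in Itgb3 was called, and from Flk1+ cells to progenitors they were 0.32, 0.70, 0.22 and -0.17. Only without Sp1-/- HE1 replicate 1 was Itgb3 called in HE1 (1.39). In progenitors the 95% interval ran from -1.07 to 0.74 for Itgb3 and from -0.60 to 0.89 for Itga2b, so that a change of up to about 2-fold in Itgb3 was not resolved. A second probe of Itgb3 gave 0.15 in progenitors (standard error 0.19), with the opposite sign and also not called. From Flk1+ cells to HE1 that probe had 0.43 in Sp1+/+ cells and 0.74 in Sp1-/- cells, neither of them called, and the mean of both probes gave 1.46 and 1.80, which were called. From HE1 to HE2 it rose by 3.15 and 3.37.

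Gp1bb, the small subunit that links the von Willebrand factor receptor to its partners, had log2 intensities of 7.01 and 7.05 in Sp1+/+ Flk1+ cells, 7.02 and 6.93 in HE1, 7.37 and 7.22 in HE2 and finally 8.11 and 8.67 in progenitors. For Sp1-/- cells the corresponding values were 6.97 and 6.87, 7.13 and 7.05, 8.00 and 8.41, and 10.24 and 10.45. The genotypes differed by no more than 0.12 in Flk1+ cells and HE1. Both Sp1-/- arrays lay below both Sp1+/+ arrays in Flk1+ cells and above them in HE1, HE2 and progenitors. The difference was 1.96 in progenitors (3.88-fold, standard error 0.18, adjusted p = 4.5e-05) and 0.91 in HE2, which is just under 2-fold (adjusted p = 0.0112). In HE2 it passed 2-fold with a smaller background offset (1.08), without background correction (1.07), with the scanner's processed signal (1.62) and without Sp1-/- HE2 replicate 1 (1.12). It was 0.39 with the mean of all probes of the gene. The array holds 3 probes for Gp1bb. The other 2, of which one was well above background on 14 of the 16 arrays and the other on 2, had differences of 0.76 (standard error 0.22, adjusted p over probes = 0.0469) and 0.32 in progenitors and of 0.28 and -0.01 in HE2, and none was called. The mean of the 3 probes gave 1.01 in progenitors. Gp1bb rose from HE1 to HE2 in Sp1-/- cells (1.12, adjusted p = 0.00118) and from HE2 to progenitors in both genotypes, by 1.10 in Sp1+/+ cells (adjusted p = 0.00697) and 2.14 in Sp1-/- cells (adjusted p = 4e-05). The first of these was under 2-fold without Sp1-/- HE2 replicate 2 (0.91) and with the mean of the probes (0.41), and the second without Sp1+/+ progenitor replicate 2 (0.82) and with that mean (0.47).

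Gp9, which encodes the subunit required to bring the complex to the cell surface, had log2 intensities of 6.12 and 6.11 in Sp1+/+ Flk1+ cells, 6.79 and 6.35 in HE1, 8.68 and 8.37 in HE2 and finally 9.49 and 9.72 in progenitors. The Sp1-/- values in turn were 6.09 and 6.21, 6.79 and 6.74, 8.87 and 9.13, and 11.39 and 10.72. It was not well above background on either Sp1+/+ Flk1+ array, on 1 of 2 Sp1-/- Flk1+ arrays and on 1 of 2 Sp1+/+ HE1 arrays. Its main rise came from HE1 to HE2, by 1.96 in Sp1+/+ cells (adjusted p = 0.000366) and 2.24 in Sp1-/- cells (adjusted p = 5.5e-05). It then rose by 1.08 into Sp1+/+ progenitors and by 2.06 into Sp1-/- progenitors. The first of these calls was lost without Sp1+/+ HE2 replicate 2 (0.93) or Sp1+/+ progenitor replicate 2 (0.97) and with the processed signal (1.31). That signal also called a rise of Gp9 from Flk1+ cells to HE1, by 1.63 in Sp1+/+ and 2.15 in Sp1-/- cells. With a smaller background offset of 16 the rise in Sp1-/- cells was called as well (1.01). In progenitors the difference between genotypes was 1.45 (2.73-fold, standard error 0.21, adjusted p = 0.00101), and in HE2 it was 0.48 (adjusted p = 0.268).

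Gp5, the remaining subunit of the complex among the 9, had log2 intensities of 6.65 and 6.45 in Sp1+/+ Flk1+ cells, 6.65 and 6.51 in HE1, 7.25 and 7.44 in HE2 and finally 8.49 and 8.89 in progenitors. The Sp1-/- arrays of the same populations had 6.55 and 6.59, 6.81 and 6.56, 8.42 and 8.77, and 10.50 and 10.59. The genotypes overlapped in Flk1+ cells and HE1 and were separate from HE2 on. Both Sp1-/- HE2 arrays lay within or just below the range of the Sp1+/+ progenitors. The difference was 1.25 in HE2 (2.38-fold, standard error 0.16, adjusted p = 0.00092) and 1.86 in progenitors (3.62-fold, adjusted p = 3.1e-05). From HE1 to HE2 it rose by 1.91 in Sp1-/- cells. In Sp1+/+ cells it had a difference of 0.77, short of 2-fold (adjusted p = 0.0101). That step of Gp5 in Sp1+/+ cells was called with a smaller background offset of 16 (1.06) and with the processed signal (1.58). Its rise from HE2 to progenitors was called in both genotypes, at 1.35 and 1.95.

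Gp1ba encodes the subunit of the same complex that binds von Willebrand factor and was not among the 9 genes. Its log2 intensities in Sp1+/+ and Sp1-/- progenitors were 9.78 and 10.27 against 11.62 and 11.64. It was higher in Sp1-/- cells in HE1 (1.07, adjusted p = 0.00598) and progenitors (1.61, standard error 0.19, adjusted p = 0.000241) and missed 2-fold in HE2 (0.75, adjusted p = 0.0402). All 4 genes of the complex were therefore called higher in Sp1-/- progenitors.

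Gp6, the collagen receptor, was dim throughout. It had log2 intensities of 6.45 and 6.43 in Sp1+/+ Flk1+ cells, 6.43 and 6.61 in HE1, 6.70 and 6.81 in HE2 and finally 6.89 and 6.77 in progenitors. Its values in Sp1-/- cells, in that order, were 6.26 and 6.47, 6.69 and 6.70, 6.87 and 7.08, and 7.92 and 7.78. All 16 arrays were well above background, and the Sp1-/- progenitors stood apart from every other group. Their difference from Sp1+/+ progenitors was 1.02 (2.03-fold, standard error 0.11, adjusted p = 0.000145), at the edge of the 2-fold limit. It fell below 2-fold without Sp1-/- progenitor replicate 1 (0.95) or Sp1+/+ progenitor replicate 2 (0.96). The offset that the deposited values carry compresses the changes of dim probes, and the scanner's processed signal gave 1.81. No step in Gp6 from one population to the next was called in either genotype, the largest being 0.88 from Sp1-/- HE2 to progenitors (adjusted p = 0.000376). That step was called with a smaller background offset of 16 (1.10), without background correction (1.05) and with the processed signal (1.33). Fcer1g, whose product signals for Gp6, was higher in Sp1-/- cells by 2.51 in HE2 (adjusted p = 0.000303) and 1.80 in progenitors (adjusted p = 0.00118).

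Pf4, platelet factor 4, had log2 intensities of 6.23 and 6.10 in Sp1+/+ Flk1+ cells, 8.57 and 7.33 in HE1, 10.86 and 10.62 in HE2 and finally 10.40 and 10.85 in progenitors. For Sp1-/- cells the corresponding values were 7.09 and 6.64, 8.20 and 8.26, 10.34 and 10.41, and 12.22 and 11.36. The order of the genotypes was not the same in all populations. Both Sp1-/- arrays lay above both Sp1+/+ arrays in Flk1+ cells and progenitors and below them in HE2, and the groups overlapped in HE1. The differences were 0.70, 0.28, -0.37 and 1.17 from Flk1+ cells to progenitors, with a standard error of 0.36, and only the last was called (2.24-fold, adjusted p = 0.0588). That call was lost in 3 of the 4 fits that leave out a progenitor array: without Sp1+/+ progenitor replicate 1 (0.94), without Sp1+/+ progenitor replicate 2 (1.39, adjusted p = 0.0939), and without Sp1-/- progenitor replicate 1 (0.74). It was also lost with an offset of 16 (1.18), without background correction, with the processed signal (1.27) and with the 4 progenitor arrays fitted alone. From Flk1+ cells to HE1 Pf4 rose by 1.79 in Sp1+/+ cells and 1.37 in Sp1-/- cells, and from HE1 to HE2 by 2.79 and 2.15. The rise into Sp1-/- HE1 lost its call without either HE1 array (1.40 and 1.34) and without Flk1+ replicate 2 (1.14). From HE2 to progenitors it did not change detectably in Sp1+/+ cells (-0.12, 95% interval -0.91 to 0.68), whereas it rose by 1.42 in Sp1-/- cells (adjusted p = 0.0231). This last rise was lost without either Sp1-/- HE2 array (1.38 and 1.45) and without Sp1-/- progenitor replicate 1 (0.99), and with the processed signal (1.57).

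Ppbp, which encodes another alpha granule chemokine and lies beside Pf4 on chromosome 5, was at or near background on most arrays. Its log2 intensities ran from 5.88 to 6.24 in Flk1+ cells, HE1 and HE2, where no array was well above background. In progenitors it had 6.31 and 6.38 in Sp1+/+ cells, 1 of the 2 arrays being well above background, and 6.34 and 6.34 in Sp1-/- cells, where both were. No comparison of Ppbp was called, except that the processed signal gave a rise of 1.79 from Sp1-/- HE2 to progenitors, and its difference in progenitors was -0.01 (95% interval -0.21 to 0.20). These values give only a bound on the level of Ppbp outside progenitors.

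Treml1 had log2 intensities of 6.75 and 6.81 in Sp1+/+ Flk1+ cells, 7.09 and 6.48 in HE1, 9.26 and 8.81 in HE2 and finally 9.79 and 10.11 in progenitors. The Sp1-/- values in turn were 6.98 and 6.84, 7.26 and 7.43, 10.45 and 10.95, and 12.44 and 11.94. Sp1-/- arrays lay above Sp1+/+ arrays in all 4 populations, and in HE2 the Sp1-/- arrays were above both Sp1+/+ progenitor arrays. The difference was 0.13 in Flk1+ cells, 0.56 in HE1 (adjusted p = 0.191), 1.67 in HE2 (3.17-fold, standard error 0.25, adjusted p = 0.00257) and 2.24 in progenitors (4.72-fold, adjusted p = 0.000171), the largest of the 9 genes. From HE1 to HE2 Treml1 rose by 2.25 in Sp1+/+ cells (adjusted p = 0.000396) and 3.36 in Sp1-/- cells (adjusted p = 1.2e-05). From HE2 to progenitors it rose by 1.49 in Sp1-/- cells. In Sp1+/+ cells that step was 0.92, below 2-fold (adjusted p = 0.0812), and was called without HE2 replicate 1 (1.14) or progenitor replicate 1 (1.08).

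The effect of Sp1 loss on the 9 genes was compared with that on all genes. The 9 were chosen with earlier results of these data known, so the shares here and below are no independent test. In Flk1+ cells 0 of the 9 were called in either direction, against 0.778% of all genes higher and 0.872% lower, and 0 of the 9 had an unadjusted limma p below 0.05. In HE1 0 of the 9 were called, against 0.972% of all genes higher and 1.14% lower, and 1 (Treml1) had an unadjusted p below 0.05. An unmoderated test on the 4 arrays alone also called 0 in these 2 populations, and its share over all genes is not given. The scanner's processed signal called 1 gene in each, which was Pf4 in Flk1+ cells (2.34) and Treml1 in HE1 (1.60). In HE2 2 of the 9 were higher, against 0.773% of all genes, and 0 were lower, against 1.17%. In progenitors 6 of the 9 were higher, against 1.51% of all genes, and 0 were lower, against 2.59%. With genes required to be well above background on both arrays of at least 1 group, 1.85% of all genes were higher in Sp1-/- progenitors.

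From Flk1+ cells through HE1 and HE2 to progenitors, the median difference over the 9 genes was 0.02, 0.20, 0.32 and 1.17, and that over all genes tested was 0.01, 0.01, 0.015 and 0.02. Both Sp1-/- arrays lay above both Sp1+/+ arrays for 2, 4, 6 and 6 of the 9 genes in the same order, and below them for 1, 1, 1 and 0. Over all genes the arrays lay above in 27.8%, 22.9%, 24.1% and 34.1%, and below in 23.8%, 22.1%, 21.3% and 28.4%. The counts in Flk1+ cells were thus close to the background, and those in progenitors were 6 of 9 against 34.1%. The unmoderated test, which estimates its error from 4 arrays, called 0 of the 9 in HE2 and 1 (Gp6) in progenitors. The share of all genes that it called is not given, so these counts cannot be set against a background.

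**Figure D2:**
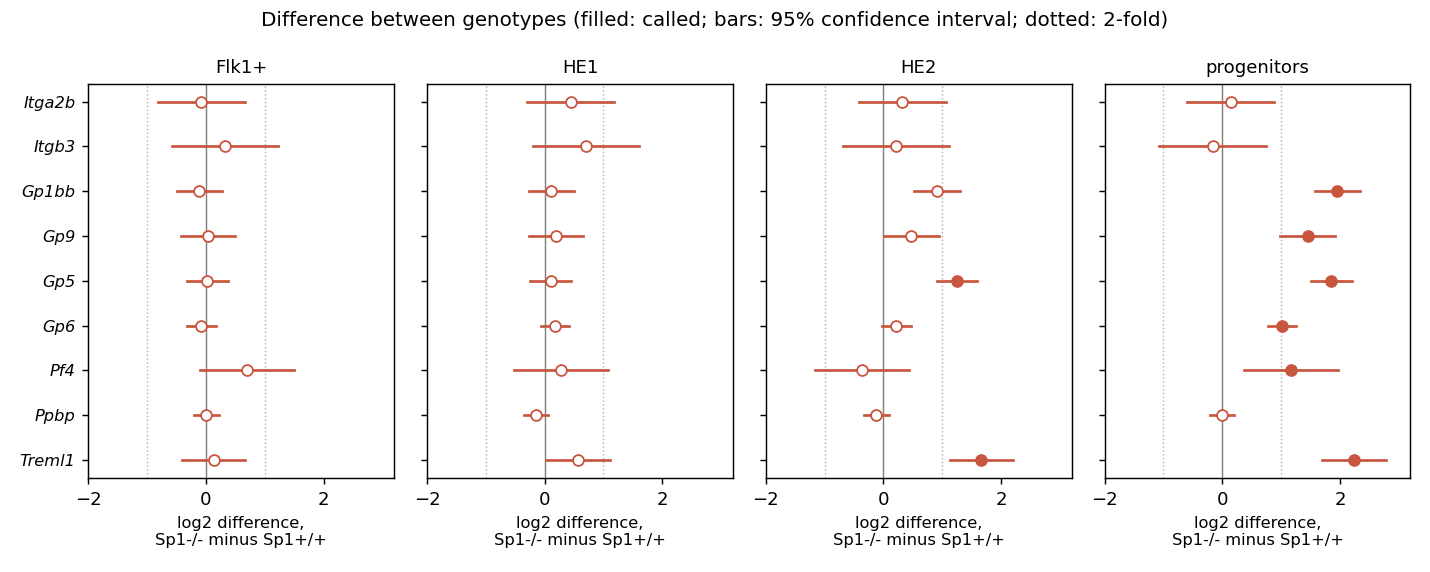
Log2 difference between Sp1-/- and Sp1+/+ cells (x axis) for each of the 9 genes (y axis) in the 4 populations. Filled points were called, bars are 95% confidence intervals from limma over 2 arrays a group, and dotted lines mark 2-fold. The called genes are Gp5 and Treml1 in HE2 and Gp1bb, Gp9, Gp5, Gp6, Pf4 and Treml1 in progenitors.

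Within a genotype, the rises of the 9 genes were counted at each step. From Flk1+ cells to HE1 3 of the 9 rose in each genotype, namely Itga2b, Itgb3 and Pf4, against 4.66% of all genes in Sp1+/+ cells and 4.62% in Sp1-/- cells. From HE1 to HE2 5 rose in Sp1+/+ cells (Itga2b, Itgb3, Gp9, Pf4 and Treml1), against 1.07% of all genes. In Sp1-/- cells 7 rose at this step, which were the same 5 genes with Gp1bb and Gp5, against 2.08% of all genes. Both counts include Itga2b, which encodes the CD41 of the gate that changes at this step, and Itgb3, its partner chain. The rises of these genes are not independent of the sort. From HE2 to progenitors 3 rose in Sp1+/+ cells (Gp1bb, Gp5 and Gp9), against 1.01%, and 5 rose in Sp1-/- cells (these 3 with Pf4 and Treml1), against 2.33%.

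Whether the effect of Sp1 loss itself changed between populations was tested as an interaction. From Flk1+ cells to HE1 it changed for 0 of the 9 genes, against 0.711% of all genes with a rise of the effect, and 0 had an unadjusted limma p below 0.05. From HE1 to HE2 the effect rose for Gp5 (by 1.15, standard error 0.22) and Treml1 (by 1.11, standard error 0.35), 2 of the 9 against 0.431% of all genes. From HE2 to progenitors it rose for Gp1bb (by 1.05, standard error 0.25), 1 of the 9 against 0.684%. None of these 3 passed at an adjusted p of 0.05 (adjusted p = 0.132 for Gp5, 0.434 for Treml1 and 0.0992 for Gp1bb). The call of Gp5 was lost without Sp1-/- HE2 replicate 2 (0.97). That of Treml1 was lost without Sp1+/+ HE1 replicate 1 (0.80) or Sp1+/+ HE2 replicate 2 (0.88), without either Sp1-/- HE1 array (1.02 and 1.19) and without Sp1-/- HE2 replicate 2 (0.86). With the processed signal the estimate for Treml1 was 0.23 and that for Gp1bb 0.73, and neither was called, while Gp1bb was called from HE1 to HE2 instead (1.18). That of Gp1bb was lost without Sp1+/+ HE2 replicate 1 (0.97), Sp1+/+ progenitor replicate 1 (0.77), Sp1-/- HE2 replicate 1 (0.84) or Sp1-/- progenitor replicate 2 (0.94). Gp6, whose effect grew by 0.80 from HE2 to progenitors, had an adjusted p of 0.0442 and was under 2-fold. Gp9, at 0.98 (standard error 0.30, adjusted p = 0.223), was just under 2-fold and was called without Sp1+/+ HE2 replicate 2 (1.13), Sp1+/+ progenitor replicate 2 (1.09), Sp1-/- HE2 replicate 2 (1.11) or Sp1-/- progenitor replicate 2 (1.31). Gp1bb was called from HE1 to HE2 without Sp1-/- HE2 replicate 1 (1.00). Pf4 had the largest estimate at this last step, 1.53, and was called only without Sp1-/- progenitor replicate 2 (1.96) among the fits that leave out an array (adjusted p = 0.278 with all arrays).

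Further lists of genes of the platelet program had calls in progenitors, to be read against the 1.51% of all genes that were higher there and the 2.59% that were lower. In the earlier populations 0.773% to 0.972% of all genes were higher and 0.872% to 1.17% lower. Of 31 other platelet receptors and surface genes, 4 were higher in Sp1-/- progenitors and 2 lower. The 4 were Gp1ba, Fcer1g, Clec1b (a receptor for podoplanin, 1.30, adjusted p = 0.0286) and Mpig6b, an inhibitory receptor of megakaryocytes, which had the largest rise (2.34, 5.06-fold, adjusted p = 4.5e-05). The 2 were Esam (-2.67), an adhesion molecule shared with endothelium, and Tspan9 (-1.12). Over the 31 genes the median difference in progenitors was -0.01. In HE2 2 of the 31 were higher (Fcer1g and Mpig6b) and 0 lower, in HE1 2 were higher, led by Trpc6 (1.33), and 1 lower (F2rl3, -1.25), and in Flk1+ cells 1 was higher (Itga6, 1.26).

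Of 34 granule and coagulation genes, 3 were higher in Sp1-/- progenitors and 6 lower. Vwf, which encodes von Willebrand factor, had log2 intensities of 9.20 and 9.79 in Sp1+/+ progenitors and 11.72 and 11.53 in Sp1-/- progenitors, a difference of 2.13 (standard error 0.26, adjusted p = 0.000347). It was also higher in HE1 (1.62, adjusted p = 0.00417) and HE2 (1.08, adjusted p = 0.0353). Its highest levels within each genotype were in HE1, so its course over the populations was unlike that of the 9 genes. Mmrn1 (multimerin 1) and Srgn (serglycin, the proteoglycan of granules) were higher by 1.14 and 1.04 in progenitors and by 1.74 and 1.02 in HE2. Those lower in progenitors included Sparc (-2.69), Pdgfa (3.99-fold lower), Timp3 (-1.62), Thbs1 (-1.47) and Serpine2 (-1.39). The median over the 34 genes in progenitors was -0.16. In the earlier populations 2 were higher in HE1, led by Vwf, and 1 in Flk1+ cells (Tmsb4x, 1.15).

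Of 38 signalling and cytoskeleton genes, 6 were higher in Sp1-/- progenitors and 2 lower, with a median of -0.01. Tubb1, the beta-tubulin of the platelet's marginal band, had log2 intensities of 8.14 and 8.93 in Sp1+/+ progenitors and 10.60 and 10.81 in Sp1-/- progenitors. It was higher by 2.17 in progenitors (standard error 0.23, adjusted p = 0.00014) and by 1.14 in HE2 (adjusted p = 0.0149), and it overlapped between genotypes in Flk1+ cells. Dmtn, a membrane skeleton protein that red cells also use, had the largest rise (2.32, adjusted p = 9.2e-05), followed by Tubb1, Tbxas1 (thromboxane synthase, 1.60), Prkcq (1.21), Btk (1.19) and Apbb1ip (1.14). Ctla2a (-1.29, adjusted p = 0.0547) and Gng11 were lower. In HE2 6 of the 38 were higher and 0 lower, led by Btk (1.78, adjusted p = 0.000348), and the median was 0.19. In HE1 3 were higher, led by Rasgrp2 (1.45), and 3 lower, led by Plek (-1.57). In Flk1+ cells Rasgrp2 was higher (1.02) and Pla2g4a lower (-1.08).

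Among 28 transcription factors of the megakaryocyte program, 0 were called higher in Sp1-/- progenitors by limma, although 8 were higher and 6 lower at an unadjusted p below 0.05, and 1 was called lower (Cbfb, the partner of RUNX factors, -1.18, adjusted p = 0.000632). The called counts, 0 higher and 1 lower of the 28, are near the shares of all genes called, 1.51% higher and 2.59% lower. No share of all genes at an unadjusted p below 0.05 is given, here or for HE2, so the counts at that threshold have no background beside them. Gata1 had log2 intensities of 13.83 and 14.66 in Sp1+/+ progenitors and 15.60 and 15.67 in Sp1-/- progenitors. Its difference of 1.39 was not called, with a standard error of 0.65 (adjusted p = 0.206), and neither was that of 1.85 in HE2 (adjusted p = 0.145). The 2 Sp1+/+ HE1 arrays differed for Gata1 by more than either comparison, at 9.57 and 6.89. Fli1, an ETS factor, was lower in Sp1-/- Flk1+ cells (-1.37, standard error 0.27, adjusted p = 0.0121) and was not called later, with -0.59, -0.34 and -0.77. Runx1 was higher in HE1 (1.55, adjusted p = 0.0135), as was Gfi1b (1.10, adjusted p = 0.0717), and was not called in progenitors (0.38). Nfe2, required for platelet release, was not called in any population (-0.65, -0.20, 0.36 and 0.11, standard error 0.52). In HE2 0 of the 28 were called in either direction, with 7 higher and 2 lower at an unadjusted p below 0.05.

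**Figure D3:**
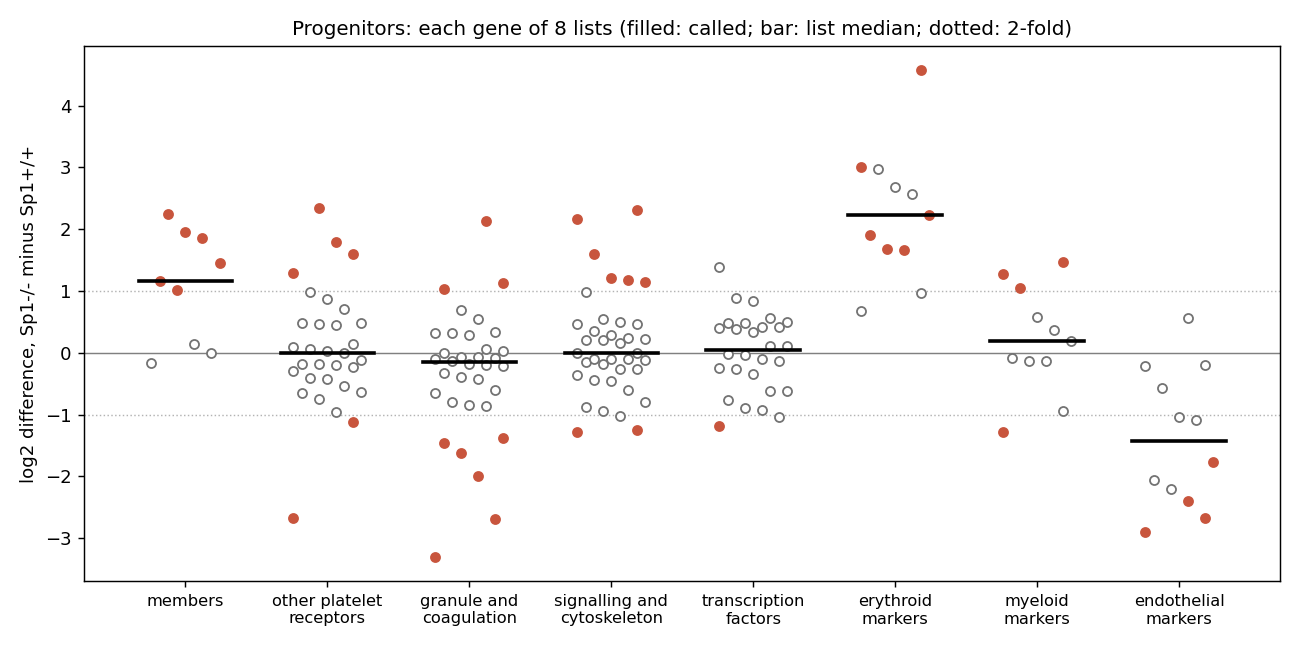
Log2 difference between Sp1-/- and Sp1+/+ progenitors (y axis) for every gene tested in 8 lists (x axis). Filled points were called, black bars are list medians and dotted lines mark 2-fold. The median is 1.17 for the 9 members, between -0.16 and 0.04 for the 4 other megakaryocyte and platelet lists, 2.24 for erythroid markers, 0.19 for myeloid markers and -1.43 for endothelial markers.

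Genes of other cell types moved in the same populations. Over all genes, 1.51% were called higher and 2.59% lower in Sp1-/- progenitors, and 0.773% and 1.17% in HE2. Of 11 erythroid markers, 6 were higher in Sp1-/- progenitors (Slc4a1, Alas2, Klf1, Rhag and Epor among them) and 0 lower, with a median of 2.24. Slc4a1, the band 3 anion exchanger of red cells, had the largest rise (4.57, adjusted p = 1.4e-05). The mean log2 intensity over the list was 14.55 and 14.49 on the Sp1-/- progenitor arrays and 11.61 and 12.90 on the Sp1+/+ ones. In HE2 1 of the 11 was called higher (Slc4a1, 1.29, adjusted p = 0.0524) and all 11 had positive differences. Of 12 endothelial markers, 4 were lower in Sp1-/- progenitors (Cdh5, Eng, Esam and Sox18), led by Sox18 (-2.91, adjusted p = 0.000667), and 0 higher. The mean over that list was 8.70 and 8.96 against 10.77 and 9.65, and 3 of its genes were well above background on neither Sp1-/- progenitor array. Of 11 myeloid markers, 3 were higher, led by Csf1r (1.48, adjusted p = 0.0188), and 1 was lower (Cebpe, -1.28, adjusted p = 0.000182), and the mean over the list was 11.04 and 11.06 against 10.77 and 10.90. In HE2 3 myeloid markers were higher, led by Fcgr3 (1.97, adjusted p = 7.9e-06). Kit, a sort gate of HE1, HE2 and progenitors, was lower in Sp1-/- progenitors (-1.23, adjusted p = 0.0367). In sorted populations measured in bulk, more cells of a type and more RNA per cell cannot be told apart, and the part of these shifts in the changes of the 9 genes was not tested.

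**Figure D4:**
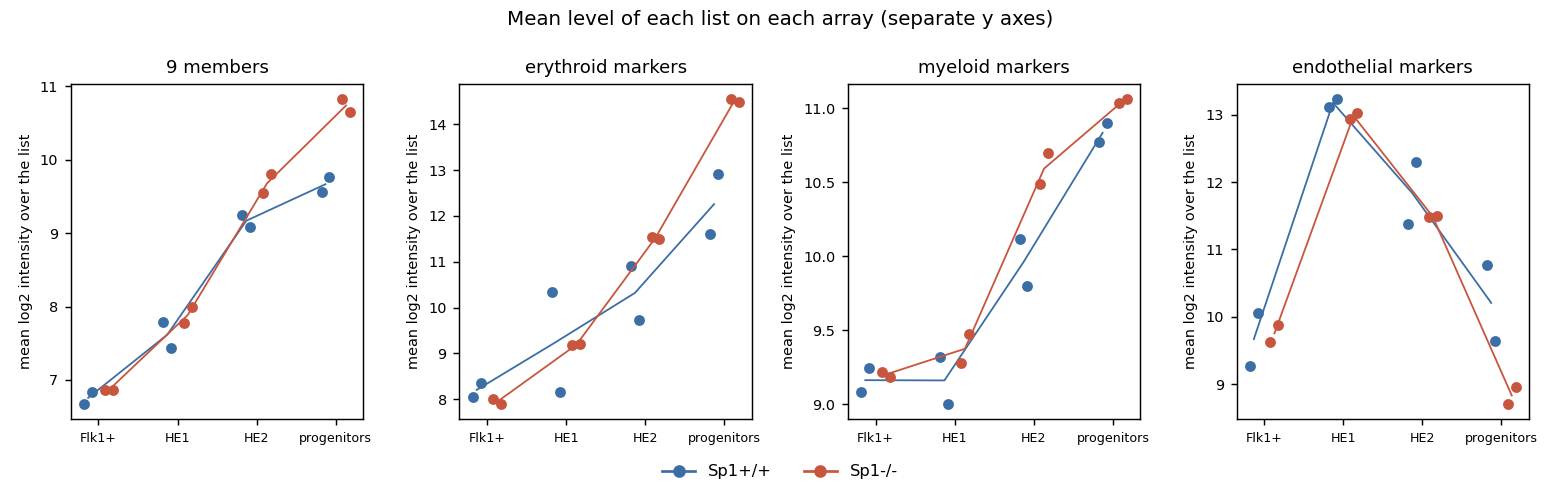
Mean log2 intensity over each list on each array (y axis, separate scales) by population (x axis), for the 9 members and for erythroid, myeloid and endothelial markers, with Sp1+/+ in blue and Sp1-/- in red. Points are arrays and lines join the means of 2 arrays. In progenitors the 2 Sp1-/- arrays lie above both Sp1+/+ arrays for the members and the erythroid markers and below them for the endothelial markers, and the Sp1+/+ HE1 arrays are far apart in erythroid markers.

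The 9 genes did not follow a single course. Over the 8 group means, which come from the same 16 arrays, the correlation between pairs of members was highest for Gp1bb with Gp5 (r = 0.985), followed by Gp9 with Treml1 (r = 0.978), Itgb3 with Pf4 (r = 0.975) and Gp5 with Treml1 (r = 0.970). It was lowest for Itga2b with Gp1bb (r = 0.523). With the mean standardized profile of the 9, Gp9 had the highest correlation (r = 0.992) and Itga2b the lowest (r = 0.806). Outside the 9, the genes closest to this mean profile among 7567 candidates were Hbb-bt (r = 0.995), Tbc1d10c (0.994), Trim58 (0.993), Dhrs11 (0.992), Hba-a1 (0.990), Tbc1d2b (0.988), Hbb-b2 (0.988) and Rfk (0.988). Hbb-bt, Hba-a1 and Hbb-b2 are adult globin genes with near-identical copies, so their probes may read more than 1 gene. The mean log2 intensity of Hbb-bt was 10.94 in Sp1+/+ progenitors and 12.47 in Sp1-/- progenitors, and that of Trim58 was 7.41 and 7.66.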

How the data were processed

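RNA of 2 genotypes and 4 populations was hybridized to 16 one-color Agilent arrays. The authors deposited the scanner's intensities (median signal, median background and processed signal; Feature Extraction 10.7.1.1 per the labels, 10.7.3.1 per the file headers) and a table of log2 values, which are the values used here. The study's methods state limma's normexp correction at an offset of 16 and quantile normalization. The deposited log2 values were instead matched from the intensities with an offset of 50, to within 0.005, which compresses the differences of dim probes. The methods' minimum (log2 of 6 or more on 1 array or more) then left out few probes (55595 of 55681 passed).

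Target names were matched to symbols through a RefSeq table of GRCm38.p6 (20881 of 37932), and each gene was read from the probe with the highest mean. A limma model (R 4.3.3, limma 3.58.1) across all genes, with 8 group coefficients and 8 residual degrees of freedom, gave Sp1-/- minus Sp1+/+ in each population, each step within a genotype and the interactions. It was checked on simulated data. Calls needed an unadjusted p of 0.01 or less and 2-fold, as in the methods. Alternatives changed the background correction, scaling, filter, probe rule, threshold, test or arrays used, or added a replicate block.

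The 9 members and the lists were chosen with earlier results of these data known. From each list the text names the called gene with the largest rise and fall in each population, plus Gp1ba, Vwf, Tubb1, Gata1, Fli1, Nfe2, Runx1, Septin5 and Itgav and the 8 genes whose group means correlated best with the members' mean profile. Other genes of the lists that are named were chosen after their values were seen. Some genes that this rule would name are not reported here.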

Additional observations from a re-analysis of the deposited data

Results flagged for a closer look

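For 3 of the 9 genes the difference between Sp1-/- and Sp1+/+ cells itself differed between successive populations, at an unadjusted limma p of 0.01 or less and at least 2-fold. The difference for Gp5 was 1.15 larger on the log2 scale in HE2 than in HE1 (standard error 0.22, adjusted p = 0.132), and both Sp1-/- HE2 arrays lay above both Sp1+/+ ones. The difference for Treml1 was 1.11 larger in HE2 than in HE1 (standard error 0.35, adjusted p = 0.434), and the 2 Sp1+/+ HE1 arrays had 7.09 and 6.48 for this gene. With the scanner's processed signal the Treml1 value was 0.23. The difference for Gp1bb was 1.05 larger in progenitors than in HE2 (standard error 0.25, adjusted p = 0.0992). No group had enough arrays for a test of single arrays that stand apart.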

How the results depend on the processing

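Directions are given only for called values, and none of the 9 genes changed direction in any comparison it was called in. Neither dropping the minimum on intensity nor requiring signal well above background changed a call. The number of genes with a changed effect of Sp1 loss from HE1 to HE2 (2 genes) was 1 with an offset of 16, without background correction, with the replicate block and with the arrays of the comparison alone, and 0 at an adjusted p of 0.05 or 0.01. From HE2 to progenitors (1 gene) it was 0 with an offset of 16, without background correction, with the processed signal, with the mean over probes and at an adjusted p of 0.05 or 0.01, and 2 with the replicate block. With the arrays of the comparison alone it stayed at 1, but Gp1bb lost its call (1.05) and Pf4 gained one (1.53). With the processed signal scaled to its 75th percentile, 1 gene was called in Flk1+ cells and 1 in HE1. An ordinary unmoderated test called 0 genes in HE2, 1 in progenitors, 0, 1 and 0 at the 3 steps in Sp1+/+ cells and 0, 3 and 1 in Sp1-/- cells, and 0 in each of these 8 comparisons after adjustment. For that test no share of all genes is given beside the counts. At an adjusted p of 0.05 Pf4 in progenitors was the only effect of Sp1 loss within a population, among the 9 genes, to lose its call.

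Leaving out each array in turn gave 0 to 0, 0 to 1, 2 to 3 and 4 to 6 genes called between genotypes, from Flk1+ cells to progenitors. For the 3 steps it gave 3 to 3, 4 to 5 and 1 to 4 in Sp1+/+ cells, 2 to 3, 5 to 7 and 4 to 5 in Sp1-/- cells, and 0 to 0, 0 to 3 and 0 to 2 for the changes of the effect. Groups left with 1 array were assumed to vary like the others.

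With 2 arrays a group, a shared replicate number was not taken as a pairing, since no source gives one. Replicate differences correlated across genotypes at 0.226, 0.285, -0.174 and -0.112 in the 4 populations, Flk1+ cells first, and between successive populations at 0.000326, 0.503 and -0.152 in Sp1+/+ cells and at -0.0936, 0.0617 and 0.147 in Sp1-/- cells. The 0.503 is that of Sp1+/+ HE1 with HE2. With the replicate block Treml1 lost its changed effect from HE1 to HE2 and Pf4 gained one from HE2 to progenitors (1.53), and no other call of the 9 genes moved.

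The processed signal moved the median of all genes in HE1 from 0.01 to 0.19, and the share of called genes that were lower from 53.9% to 31.8% in HE1 and from 60.2% to 42.1% in HE2. It called 1358, 2034, 1725 and 2965 genes in the 4 populations, against 613, 783, 722 and 1525. Ppbp had no value at an offset of 16. Signal near background limits what can be said of Ppbp, and of Gp9 and Pf4 in Flk1+ cells.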

Other observations

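Neighbors of the members on the chromosomes and partner integrins were looked up as a further list of 12 genes. In Sp1-/- progenitors 1 was called higher (Trem2, a myeloid receptor of the Treml1 gene cluster, 1.23, adjusted p = 0.00156) and 0 lower. Over all genes 1.51% were higher there and 2.59% lower. None of the 12 was called in the other populations, where 0.773% to 0.972% of all genes were higher and 0.872% to 1.17% lower. Septin5, which lies beside Gp1bb and whose transcripts are known to run on into it, had differences of 0.27, -0.06, 0.19 and 0.22 from Flk1+ cells to progenitors (standard error 0.19). Itgav, which encodes another alpha chain that pairs with the product of Itgb3, had 0.12, 0.07, -0.02 and -0.57 (standard error 0.19), with an adjusted p of 0.0759 in progenitors.

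The erythroid gene Hba-x, an embryonic globin, had log2 intensities of 13.49 and 7.55 on the 2 Sp1+/+ HE1 arrays and of 14.06 and 11.08 on the 2 Sp1+/+ HE2 arrays, against 10.88 and 11.15 and 14.87 and 14.72 in Sp1-/- cells. On the same Sp1+/+ HE1 arrays Pf4 had 8.57 and 7.33, and Treml1 7.09 and 6.48.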
